A study of Mus musculus with 23 samples.

Results

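The data described here ask whether the loss of 1 copy of Lsd1 changes hippocampal gene expression differently in mice with a mutant tau transgene and in mice without it. They are the 14 libraries of the 9-month mice, of 23 libraries in the series, and all 14 were taken by their sample titles. Each holds the counted reads of poly(A)-selected hippocampal RNA from C57BL/6 mice. There were 4 libraries of PS19;Lsd1Δ/+ mice, which carry the PS19 transgene and are heterozygous for Lsd1 (called the double genotype here). The other groups were 4 libraries of PS19 mice, with the transgene and both Lsd1 copies, 2 of Lsd1Δ/+ mice, heterozygous for Lsd1 without the transgene, and 4 of wild-type mice (WT). PS19 is a widely used tauopathy model whose transgene expresses a mutant human tau from the promoter of the mouse prion protein gene, so the tau it makes is not under tau's own control. The labels say nothing on whether the libraries are of separate animals, so p-values measure the spread between libraries. The sources used here give neither sex nor dissection batch.

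LSD1, the product of Kdm1a, removes methyl groups from lysines of histone H3, and acts in complexes with the CoREST proteins (Rcor1 to Rcor3) and histone deacetylases, where it mostly silences genes. Tau pathology in the hippocampus is known to bring activated microglia, reactive astrocytes and an interferon response, and with time the loss of neurons. The interaction answers a narrower question than either change alone. For each gene it is the log2 difference of the double genotype from PS19 minus the log2 difference of Lsd1Δ/+ from WT. A value of 0 means that losing an Lsd1 copy had the same proportional effect with and without tau, and it is the same number as the tau effect with 1 Lsd1 copy minus the tau effect with 2 copies. Levels are given as CPM, the reads of a gene relative to the total of its library, scaled for library composition.

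Kdm1a itself, on chromosome 4 (GRCm38, 136550540 to 136602723, minus strand), checks the labels. It was at 34.9, 34.6, 55.9 and 44.5 CPM in the double genotype, 47.8, 50.1, 53.2 and 60.8 CPM in PS19, 34.8 and 35.8 CPM in Lsd1Δ/+, and 51.3, 50.5, 61.0 and 57.7 CPM in WT. Both Lsd1Δ/+ libraries lay below every WT library, while replicate 3 of the double genotype lay within the range of PS19. The log2 difference was -0.32 (SE 0.18) with tau and -0.64 (SE 0.23) without tau, and the interaction was 0.32 (SE 0.29). Without replicate 3 of the double genotype the interaction of Kdm1a was 0.16, and in replicates 1 and 2 alone it was 0.04.

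Prnp, the prion protein gene, marked the transgene carriers. Its reads numbered 1630, 1050, 1710 and 1860 CPM in the double genotype and 1440, 1750, 1670 and 1630 CPM in PS19, against 806 and 903 CPM in Lsd1Δ/+ and 908, 842, 663 and 651 CPM in WT. Every carrier library lay above every library without the transgene. Reads of the transgene and of the mouse gene cannot be told apart. The interaction of Prnp was -0.21 (SE 0.34), and that of Mapt, the mouse tau gene, -0.08 (SE 0.32). Thus neither Prnp nor Mapt passed the test for an interaction. The 95% interval was -0.93 to 0.51 for Prnp and -0.77 to 0.61 for Mapt. Mean Mapt was 593 CPM in the double genotype and 587 CPM in PS19, against 497 CPM in Lsd1Δ/+ and 465 CPM in WT, with overlapping libraries. Whether reads of the human tau transgene were counted under Mapt was not tested.

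Some libraries stand apart from their groups, which touches every interaction reported here. Counted reads ranged from 15451494 to 24617197. Replicate 2 of the double genotype held transcripts of the cerebellum. Gabra6, a GABA receptor subunit of cerebellar granule cells, had 216 CPM there and at most 0.0463 CPM in the other 3 libraries of its group, and the CA1 pyramidal neuron list had a mean log2 CPM of 3.70, against 5.47 to 5.68 in those 3. WT replicate 2 held them too, with 10.5 CPM of Gabra6. Mitochondrially encoded transcripts made up 33.9% of reads in WT replicate 3 and 16.1% in PS19 replicate 3, against 2.86% to 6.04% in the 12 other libraries. On the first principal component (51.7% of the variance) every library of replicates 3 and 4 lay on the other side from every library of replicates 1 and 2. Since Lsd1Δ/+ has replicates 1 and 2 only, that set of libraries and Lsd1 dose cannot be told apart in part of the 14-library comparison. The headers of the Lsd1Δ/+ files also name their source in another form than those of the other groups, so that any difference in how those files were made cannot be told apart from the Lsd1Δ/+ genotype, in any interaction. Repeating the interaction on replicates 1 and 2 alone, the numbers that all 4 groups have, removes this imbalance but keeps the library with cerebellar transcripts.

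No gene passed the test for an interaction. With edgeR's quasi-likelihood test and Benjamini-Hochberg adjustment, 0 of 20122 genes were called (0%), the lowest adjusted p was 0.999, and 168 genes had an unadjusted p under 0.05. In replicates 1 and 2 alone 0 of 18931 were called (0%), with 196 at an unadjusted p under 0.05. DESeq2 called 2 genes over the 14 libraries (0.00994%), Capn11 with a positive interaction and the predicted gene Gm13453 with a negative one. In DESeq2 215 genes had an unadjusted p under 0.05. Gm13453 varied widely within groups, with 7.8, 0.261, 3.47 and 0.174 CPM in PS19 and 8.04 and 0.488 CPM in Lsd1Δ/+. It had 0.0606 to 0.416 CPM in the double genotype and 0.121 to 0.324 CPM in WT. In replicates 1 and 2 alone DESeq2 called 5 (0.0264%). These were Mir6236 (adjusted p 4.56e-08), Capn11 (adjusted p 0.0254) and the predicted genes Gm10925, Gm28661 and Gm8615. Among replicates 1 and 2, Gm10925 (14.5 and 13.7 CPM) and Gm28661 (12.1 and 13.1 CPM) were highest in Lsd1Δ/+. Over all libraries both peaked in WT replicate 3, with the high mitochondrial share (3210 and 228 CPM). Gm8615 was instead lowest in the double genotype among replicates 1 and 2 (1.11 and 1.16 CPM). Over all libraries Gm8615 was lowest in WT replicate 3 (0.292 CPM), and PS19 replicate 3 (1.02 CPM) also lay below both of those values. Over all genes tested in the 14 libraries, 52.4% of interactions were positive, with a median of 0.03, so a list's signs can be read against a nearly even split.

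The Lsd1 effects that make up the interaction gave few calls as well. Between the double genotype and PS19, edgeR called 0 genes (0%), with 252 at an unadjusted p under 0.05, and DESeq2 called 1 (0.00497%), which was Capn11. Between Lsd1Δ/+ and WT, edgeR called 0 (0%), with 257 at an unadjusted p under 0.05, and DESeq2 called 1 (0.00497%), the microRNA locus Mir6236.

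How large an interaction these libraries could have shown is given by its error. Among the 16159 genes averaging 1 CPM or more, the median SE of the interaction was 0.53 on the log2 scale and the median half-width of its 95% interval was 1.14. The interaction itself lay within 1 log2 unit of 0 for 15184 of them (94%), but for 3653 (22.6%) the whole 95% interval did. In replicates 1 and 2 alone the median SE was 0.34 and the median half-width 0.80, and the interval lay within 1 log2 unit of 0 for 7841 genes (48.7%). For the remaining genes the interval reached 1 log2 unit or more in at least 1 direction, so an interaction of that size lay within the error of the measurement.

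Replicates 1 and 2 allow the interaction to be computed separately in quartets that share no library. Across the genes of at least 1 CPM the 2 sets of values ran against each other, with Pearson's r of -0.36 and Spearman's rho of -0.41, and 34% of genes had the same sign. Genes are not independent replicates, and the 2 quartets share the annotation, the processing and each gene's level. The Lsd1 effect measured with tau also differed between the numbers, with r of -0.32 between replicate 1 and replicate 2, and so did the Lsd1 effect without tau, with r of -0.25. Within a replicate number, the tau effects with 1 and with 2 Lsd1 copies, which share no library, had r of 0.56 in replicate 1 and r of -0.19 in replicate 2, the quartet with the cerebellar transcripts.

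**Figure D1:**
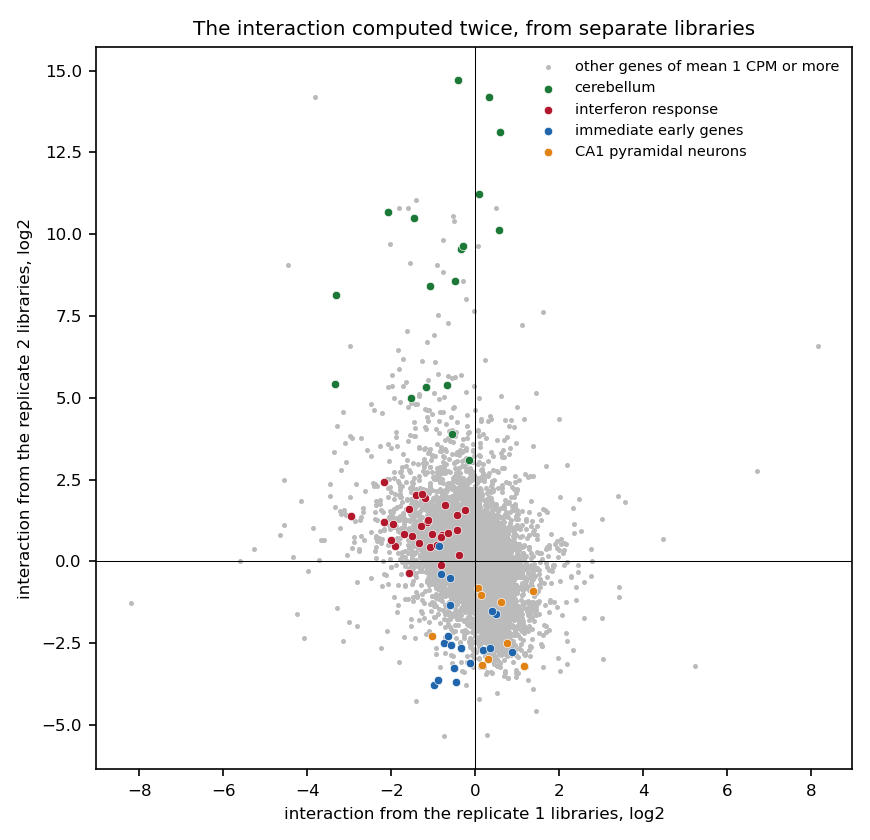
Interaction of tau and Lsd1 dose from the 4 replicate 1 libraries (horizontal axis, log2) against that from the 4 replicate 2 libraries (vertical axis, log2). Each point is a gene averaging 1 CPM or more, with genes of 4 lists coloured. Interferon response genes lie to the left and mostly above 0, immediate early genes mostly below 0 and cerebellum genes far above 0, and r over all points is -0.36.

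Capn11, which encodes a calpain protease known from the testis, had the lowest interaction p of the genes named here. It lies on chromosome 17 (45630204 to 45659325, minus strand). Its level was 3.66, 2.18, 3.39 and 5.33 CPM in the double genotype against 0.305, 0.470, 0.0680 and 0.608 CPM in PS19. Without tau it was 0.296 and 0.380 CPM in Lsd1Δ/+ against 4.31, 0.706, 2.34 and 0.768 CPM in WT. With tau the libraries with 1 Lsd1 copy were therefore higher and without tau lower, with no overlap in either pair, and WT replicates 2 and 4 were close to PS19. The levels rest on few reads, 56 to 88 per library in the double genotype, 1 to 14 in PS19, 7 in each Lsd1Δ/+ library and 17 to 93 in WT.

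On the log2 scale the difference for Capn11 was 3.26 (SE 0.66) with tau and -2.56 (SE 0.86) without tau, and the interaction 5.83 (SE 1.11, 95% interval 3.43 to 8.22). Its p in edgeR was 0.000147 before adjustment and 0.999 after it, and the adjusted p in DESeq2 was 0.000236, so the 2 tools differ in the call. The interaction of Capn11 was 5.78 in replicates 1 and 2 alone, 6.70 in replicate 1, 2.75 in replicate 2, and 5.11 to 6.14 when any 1 library was left out. Without the library with cerebellar transcripts it was 5.98.

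Of the other 9 genes with the lowest p among those whose interaction was positive in all 4 versions (14 libraries, replicates 1 and 2 together, and each alone), none passed the edgeR test. These were Slc5a7, Mir6236, Irs4, Dgkk, Unc13c, Oprk1, Adamts18, Klhl1 and Ppp1r17. For most of them the interaction was smaller without 1 library, named below with the gene. Slc5a7, the choline transporter of cholinergic neurons, had 0.601, 21.6, 3.75 and 1.21 CPM in the double genotype, 0.479, 0.626, 1.70 and 1.17 CPM in PS19, 0.254 and 0.651 CPM in Lsd1Δ/+ and 0.695, 0.789, 24.7 and 5.09 CPM in WT. The high values are double replicate 2, with the cerebellar transcripts, and WT replicate 3, with the high mitochondrial share. Its interaction of 6.89 (SE 2.23) was 4.95 without double replicate 2.

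Ppp1r17, which encodes a phosphatase inhibitor of Purkinje cells, had an interaction that fell further without double replicate 2. It stood at 80.3 CPM in double replicate 2 and between 0.0605 and 0.666 CPM in the other 3 of that group, 0.0871 to 0.217 CPM in PS19, 0.211 and 0.542 CPM in Lsd1Δ/+ and 0.0463 to 4.78 CPM in WT. Its interaction was 8.89 (SE 3.34), and 3.04 without that library. Adamts18, a secreted metalloprotease, had an interaction of 3.12 (SE 1.11), which was 1.6 without it, and Unc13c, a presynaptic protein of cerebellar and other synapses, 2.40 (SE 0.83) and 1.51 without it. WT replicate 3 had the highest WT level of Irs4, an insulin receptor substrate (8.17 CPM, against 0.324 to 2.16 CPM in the other WT libraries), and of Dgkk, a diacylglycerol kinase (11.6 CPM, against 0.881 to 2.18 CPM). Without it their interactions were 2.55 and 2.25, against 3.75 (SE 1.29) and 3.62 (SE 1.25) with it. Klhl1, an actin-binding protein of neurons, had an interaction of 3.14 (SE 1.12), and 2.20 without WT replicate 3. Oprk1, the kappa opioid receptor, had one of 3.40 (SE 1.20), and 2.47 without double replicate 3.

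Mir6236, a microRNA locus on chromosome 9, varied widely within groups. It had 9.07, 7.51, 134 and 212 CPM in the double genotype, 2.92, 3.70, 28.1 and 202 CPM in PS19, 0.127 and 0 CPM in Lsd1Δ/+ and 20.9, 4.61, 17.9 and 141 CPM in WT. Replicates 3 and 4 were the highest of the double genotype and of PS19, and the Lsd1Δ/+ libraries, with their different file headers, were lowest. The mitochondrial gene mt-Co2, a subunit of cytochrome c oxidase, went the other way, with 4.03, 2.97, 7.20 and 6.36 CPM in the double genotype, 2.96, 4.02, 22.6 and 7.43 CPM in PS19, 17.5 and 56.2 CPM in Lsd1Δ/+ and 4.82, 3.78, 35.7 and 7.84 CPM in WT. Nuclear copies of mitochondrial genes are common in mammals, and how reads with several alignments were treated is not stated in these sources. Their interactions were 9.85 (SE 3.30) for Mir6236 and -2.36 (SE 1.19) for mt-Co2, both with an adjusted p of 0.999 in edgeR. DESeq2 called that of Mir6236 in replicates 1 and 2 alone (adjusted p 4.56e-08) and, with a replicate block over 14 libraries, both Mir6236 (adjusted p 0.000345) and mt-Co2 (adjusted p 0.00952). The part of file handling in these interactions was not tested.

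**Figure D2:**
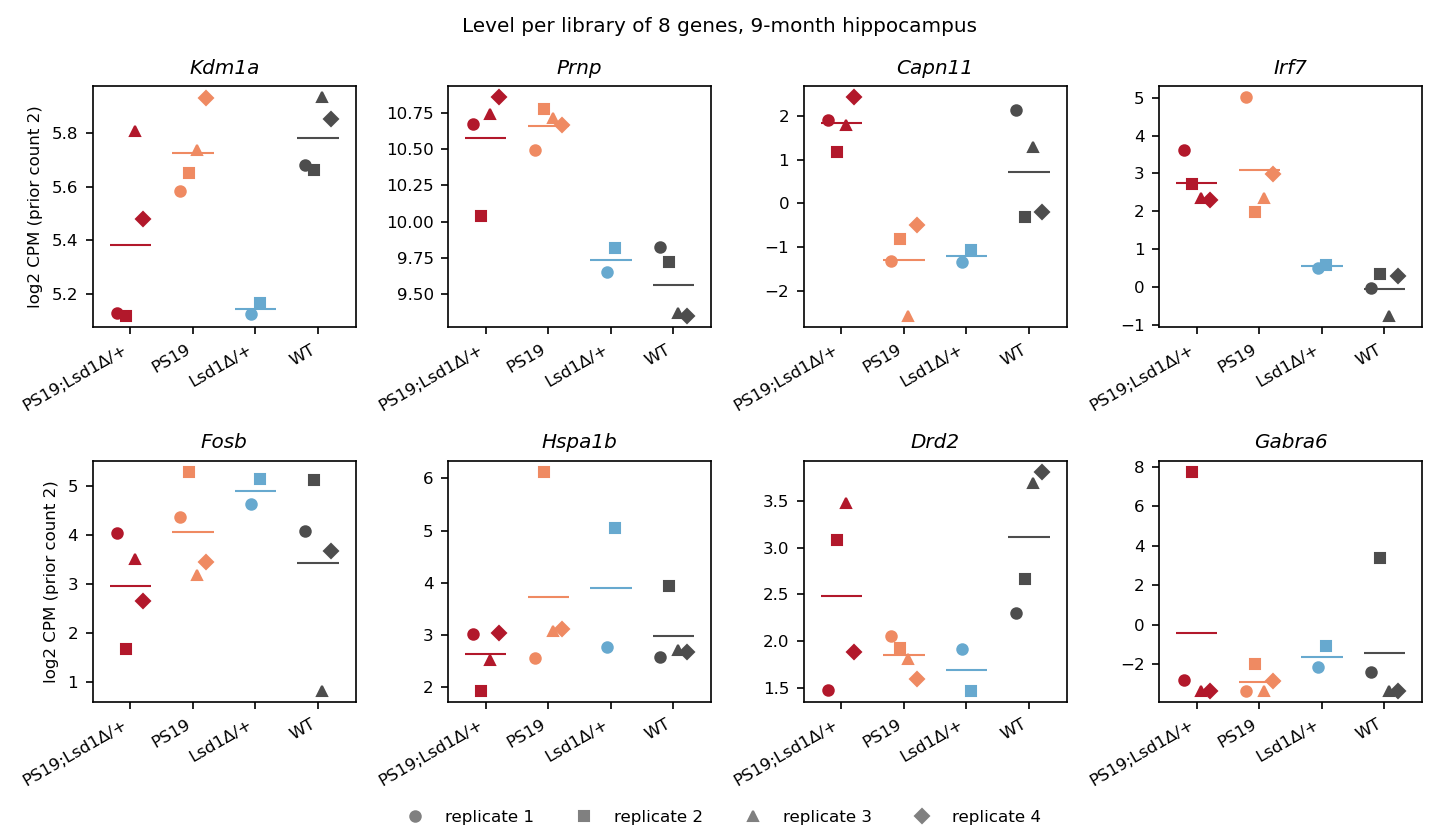
Log2 CPM (vertical axis, prior count 2) of 8 genes in each library, with the 4 groups along the horizontal axis, a symbol for each replicate number and a line at the group mean. Capn11 is higher in the double genotype than in PS19 and lower in Lsd1Δ/+ than in WT with no overlap, and the Gabra6 of 216 CPM is a single library, replicate 2 of the double genotype.

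None of the 10 negative genes named by the same rule passed the edgeR test after adjustment. The unadjusted p in edgeR was also above 0.05 for Hbegf (0.053), Mfap4 (0.0532), Tmem252 (0.0547), Npnt (0.0561) and Npc1l1 (0.0565). Stc2, which encodes the secreted glycoprotein stanniocalcin 2, lies on chromosome 11 (31357307 to 31370074, minus strand). It had 3.75, 2.90, 2.30 and 4.36 CPM in the double genotype, 5.31, 7.51, 4.28 and 4.65 CPM in PS19, 4.74 and 8.95 CPM in Lsd1Δ/+ and 3.06, 5.15, 5.16 and 4.65 CPM in WT. All but 1 library of the double genotype lay below every PS19 library, while Lsd1Δ/+ and WT overlapped. Its interaction was -1.31 (SE 0.47, unadjusted p 0.0155 and adjusted p 0.999 in edgeR), -1.66 in replicates 1 and 2 alone and -1.71 to -0.79 when 1 library was left out.

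Hspa1a and Hspa1b, neighbouring genes on chromosome 17 for the inducible heat shock protein HSP70, are near-identical copies, so the split of reads between them is uncertain. Hspa1b had 8.0, 3.70, 5.63 and 8.12 CPM in the double genotype, 5.75, 69.9, 8.36 and 8.56 CPM in PS19, 6.68 and 32.9 CPM in Lsd1Δ/+ and 5.84, 15.2, 6.42 and 6.26 CPM in WT. Replicate 2 was the highest library of PS19, Lsd1Δ/+ and WT and the lowest of the double genotype. The interaction of Hspa1b was -3.09 (SE 1.16) and that of Hspa1a -2.44 (SE 1.04), and without PS19 replicate 2 they were -1.47 and -1.06.

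Hbegf, a growth factor that binds the EGF receptor, was at 12.2, 19.7, 8.77 and 8.66 CPM in the double genotype, 33.9, 39.7, 6.73 and 32.9 CPM in PS19, 29.9 and 35.1 CPM in Lsd1Δ/+ and 34.2, 30.9, 6.32 and 9.98 CPM in WT. Among replicates 1 and 2 the double genotype was lower than all 3 other groups, and replicate 3 lay below replicates 1 and 2 in every group that has one. Its interaction of -1.87 (SE 0.88) was -1.20 in replicates 1 and 2 alone, -1.28 in replicate 1 and -1.19 in replicate 2, the closest pair of values among the negative genes. The other 7 negative genes were Hist2h4, Hist2h3c2, Rsph3a, Mfap4, Tmem252, Npnt and Npc1l1. Their interactions ran from -1.53 (Npc1l1, which encodes a sterol transporter) to -0.77 (Npnt, a matrix protein that binds integrins). Hist2h4 (-1.52) and Hist2h3c2 (-0.98) encode histones H4 and H3 and have near-identical copies elsewhere.

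Immediate early genes, transcription factors and effectors switched on within minutes by neuronal firing, were the list with the most even negative sign. All 18 of its tested genes had a negative interaction over the 14 libraries, where 9583 of all 20122 genes were negative, and all 18 in replicates 1 and 2 alone. Their median was -1.02 over 14 libraries and -1.09 in replicates 1 and 2, and 0 of 18 had an unadjusted p under 0.05. The values ran from -1.97 to -0.21. Against PS19 1 of the 18 genes was higher in the double genotype, with a median difference of -0.64, whereas 16 of 18 were higher in Lsd1Δ/+ than in WT, with a median of 0.69. Read the other way, the median tau effect was -1.03 with 1 Lsd1 copy and 0.11 with 2 copies. Genes of this list are induced together, so their signs are not separate observations.

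The libraries behind that pattern overlap. The mean log2 CPM of the 18 genes was 5.54, 3.79, 5.24 and 4.34 in the double genotype, 5.41, 6.12, 4.89 and 4.85 in PS19, 6.07 and 5.86 in Lsd1Δ/+ and 5.62, 5.94, 3.86 and 5.23 in WT. The lowest library of the double genotype is the one with cerebellar transcripts and the lowest of WT is the one with the high mitochondrial share. Both Lsd1Δ/+ libraries lay above all 4 of the double genotype. WT replicates 3 and 4 were lower than WT replicates 1 and 2 by a median of -1.44 over the list. Without replicate 2 of the double genotype the median interaction was -0.94 over the remaining 13 libraries and -0.46 in replicates 1 and 2, and it ran from -1.34 to -0.75 when any 1 library was left out. In replicate 1 alone it was -0.55, with 13 of 18 genes negative, and in replicate 2 alone -2.61, with 17 of 18 negative.

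Fosb, a subunit of the AP-1 transcription factor, and Arc, a regulator of AMPA receptors at synapses, were chosen as examples after their values were seen. Fosb had 16.2, 3.08, 11.2 and 6.18 CPM in the double genotype, 20.4, 39.0, 8.90 and 10.8 CPM in PS19, 24.8 and 35.1 CPM in Lsd1Δ/+ and 16.8, 34.7, 1.65 and 12.6 CPM in WT. Its interaction was -1.97 (SE 1.11). Arc had 175, 33.0, 185 and 38.7 CPM in the double genotype, 144, 428, 87.7 and 85.1 CPM in PS19, 311 and 291 CPM in Lsd1Δ/+ and 185, 293, 17.6 and 163 CPM in WT, and an interaction of -1.65 (SE 1.20). In both genes the 2 Lsd1Δ/+ libraries lay above every library of the double genotype, and the tau groups overlapped each other. Jun, another AP-1 subunit and the list's member with the lowest p, had an interaction of -0.93 (SE 0.45, unadjusted p 0.0593 and adjusted p 0.999 in edgeR).

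**Figure D3:**
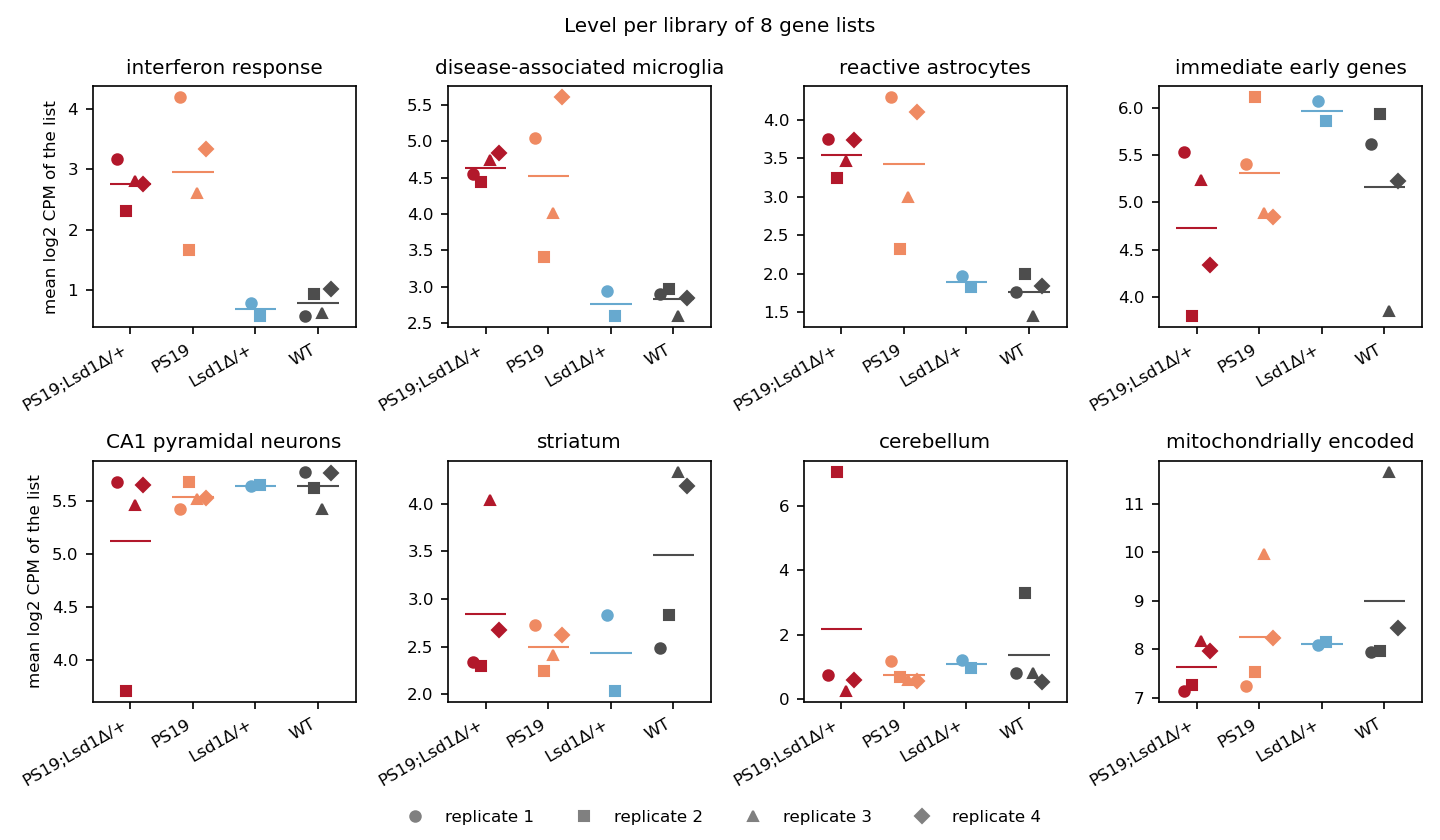
Mean log2 CPM (vertical axis) of the tested genes of 8 lists in each library, by group along the horizontal axis, with a symbol for each replicate number and a line at the group mean. The interferon, microglial and astrocyte lists are higher in both tau groups than in both groups without tau, and single libraries stand apart for CA1, cerebellum and mitochondrially encoded genes.

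Several glial and immune lists had positive median tau effects at both Lsd1 doses, given here as medians and levels. The T cell list had a median tau effect of 1.36 with 1 Lsd1 copy but 0.06 with 2. Oligodendrocyte precursor genes had 0.005 with 1 copy and 0.25 with 2. The interferon response list, antiviral genes induced by type I interferon, had 30 tested genes with a median tau effect of 2.16 with 1 Lsd1 copy and 2.39 with 2. Its mean log2 CPM was 3.18, 2.31, 2.81 and 2.76 in the double genotype and 4.2, 1.66, 2.61 and 3.34 in PS19, against 0.79 and 0.56 in Lsd1Δ/+ and 0.57, 0.94, 0.62 and 1.01 in WT. Every tau library lay above every library without tau, and PS19 spread more widely than the double genotype. In bulk RNA, more cells of a type and more RNA per cell cannot be told apart.

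The median interaction of the interferon list was -0.22, with 11 of 30 genes positive, and none had an unadjusted p under 0.05. In replicates 1 and 2 together the median was -0.54, with 2 of 30 positive. It turned with the replicate. In replicate 1 alone the median was -1.18 and all 30 genes were negative, and in replicate 2 alone it was 0.91 with 2 of 30 negative. Irf7, the transcription factor that amplifies interferon production, is an example. It had 12.2, 6.45, 5.02 and 4.79 CPM in the double genotype, 32.3, 3.86, 4.96 and 7.78 CPM in PS19, 1.31 and 1.41 CPM in Lsd1Δ/+ and 0.881, 1.16, 0.487 and 1.13 CPM in WT. PS19 replicate 1 is higher, and PS19 replicate 2 lower, than every library of the double genotype. Its own tau effect did not pass the edgeR test at either dose, with an adjusted p of 0.981 at 1 Lsd1 copy and 0.112 at 2. The interaction of Irf7 was -1.31 (SE 0.95), and -0.14 without PS19 replicate 1. Irf9, a subunit of the factor that type I interferon activates, had one of -0.75 (SE 0.54). Without PS19 replicate 1 the interferon list's median was 0.36, so its direction rests on 1 library.

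Antigen presentation genes, which load and display peptides on MHC molecules, had a median tau effect of 1.68 with 1 Lsd1 copy and 2.14 with 2. Of 18 genes, 2 had a positive interaction, and the median was -0.33. Without PS19 replicate 1 it was 0.17. Cd74, which escorts MHC class II molecules to the lysosome, had 57.0, 38.4, 21 and 97.1 CPM in the double genotype, 53.9, 8.66, 14.1 and 227 CPM in PS19, 6.64 and 1.19 CPM in Lsd1Δ/+ and 2.69, 4.98, 0.681 and 1.17 CPM in WT. Tau and no-tau libraries did not overlap, and the 2 tau groups did. Its interaction was -1.20 (SE 1.46) over 14 libraries and 0.52 in replicates 1 and 2 alone.

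Microglial and astrocyte lists also had positive median tau effects at both Lsd1 doses. Disease-associated microglial genes, the program that microglia take on around pathology, had a median tau effect of 1.35 with 1 Lsd1 copy and 1.65 with 2, and a median interaction of -0.14 with 11 of 30 positive. Spp1, the secreted phosphoprotein osteopontin of this list, had 9.11, 31.1, 16.7 and 23.0 CPM in the double genotype, 16.7, 2.35, 12.9 and 50.8 CPM in PS19, 1.99 and 0.922 CPM in Lsd1Δ/+ and 1.39, 2.57, 7.40 and 4.77 CPM in WT. The highest and the lowest of the tau libraries were both PS19, and the lowest, PS19 replicate 2, lay within the range of WT. The interaction of Spp1 was 1.38 (SE 1.19), opposite in sign to the list's median. Complement and Fc receptor genes had a median interaction of -0.20 (7 of 18 positive) and tau effects of 1.58 and 1.59 at 1 and 2 copies. The members with the lowest p went both ways. C1s1 had an interaction of 0.78 (SE 0.59) and C1ra one of 0.65 (SE 0.735). C1qa, a chain of the complement initiator C1q, had one of -0.80 (SE 0.94). Reactive astrocyte genes had -0.09 (10 of 25 positive) and tau effects of 1.83 and 2.02. For these 3 lists the median was negative in replicate 1 alone (-0.46, -0.75 and -0.76) and positive in replicate 2 alone (1.08, 1.10 and 1.04), and leaving out 1 library gave either sign. Homeostatic microglial genes had a median interaction of 0.09 (9 of 15 positive), but -0.28 in replicates 1 and 2 alone (1 of 15 positive), with tau effects of 0.73 and 0.69.

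**Figure D4:**
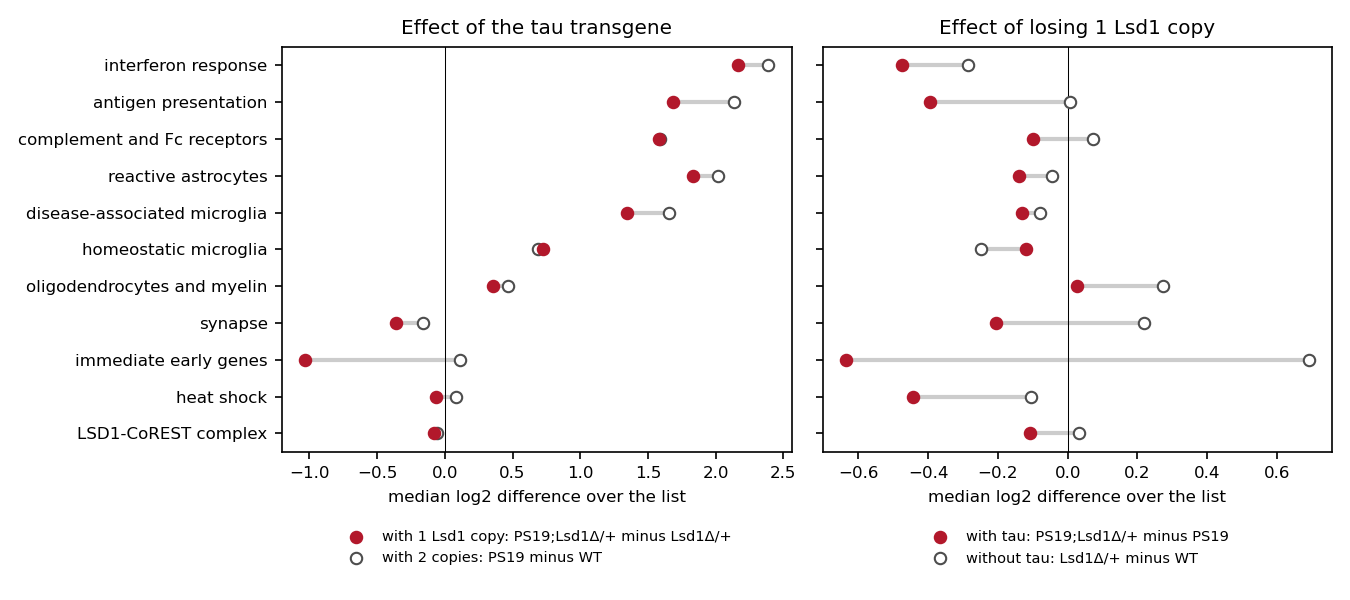
Median log2 difference over 11 gene lists (horizontal axis), for the tau transgene with 1 and with 2 Lsd1 copies (left) and for the loss of 1 Lsd1 copy with and without tau (right), from the 14 libraries. The distance between the filled and open points need not equal the list's median interaction, since a difference of medians is not a median of differences. The interferon list has 2.16 and 2.39 on the left, and the widest gap is that of the immediate early genes, -1.03 and 0.11.

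Neuronal and Lsd1-related lists had smaller medians than the immediate early genes. The LSD1-CoREST complex list had a median interaction of -0.13, with 7 of 17 genes positive and none under an unadjusted p of 0.05. Hdac1, its histone deacetylase, had 23.0, 20.8, 20.7 and 26.6 CPM in the double genotype, 26, 26, 30.2 and 30.3 CPM in PS19, 23.9 and 25.2 CPM in Lsd1Δ/+ and 22.5, 24.8, 25.0 and 27.8 CPM in WT. Its interaction was -0.27 (SE 0.25, 95% interval -0.81 to 0.26), so an interaction beyond 1 log2 unit lies outside the interval. Rcor2, a CoREST protein, had one of -0.64 (SE 0.57). Histone lysine methylation enzymes had a median of -0.09 (12 of 31 positive), and pluripotency and stem cell factors one of -0.42 (2 of 9 positive). That last list was included because loss of LSD1 is known to reawaken such genes in neurons.

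Synaptic genes had a median interaction of -0.19 (15 of 35 positive), with tau effects of -0.36 at 1 Lsd1 copy and -0.16 at 2. The list turned between replicates, with a median of 0.38 and 1 of 35 negative in replicate 1 alone and -0.81 with 32 of 35 negative in replicate 2 alone. In replicates 1 and 2 without the library with cerebellar transcripts it was 0.04. Camk2b, a calcium-dependent kinase of synapses, had 1220, 729, 858 and 1180 CPM in the double genotype, 1080, 1400, 1130 and 990 CPM in PS19, 1330 and 1620 CPM in Lsd1Δ/+ and 1280, 1290, 862 and 1290 CPM in WT. The lowest library of the double genotype is again replicate 2, whose CA1 transcripts are also low. The interaction of Camk2b was -0.53 (SE 0.36), and -0.42 without that library. CA1 pyramidal neuron genes had a median interaction of -0.13 over 14 libraries and 0.17 without replicate 2 of the double genotype. Other neuron lists also changed between versions. CA3 pyramidal neuron genes had -0.496 (1 of 8 positive) and -0.293 in replicates 1 and 2 alone. Dentate granule neuron genes had -0.16 (4 of 11) and -0.587, and GABAergic neuron genes 0.525 (11 of 15) and 0.27. In replicate 1 alone these 3 medians were 0.43, 0.265 and 0.143, and in replicate 2 alone -1.233, -1.519 and -0.006. In replicates 1 and 2 without the library with cerebellar transcripts they were -0.111, -0.114 and 0.081. Nuclear genes of oxidative phosphorylation had 0.01 (16 of 31 positive), p53 targets -0.12 (8 of 18), cell death and inflammasome genes -0.03 (9 of 19), the unfolded protein and integrated stress response -0.25 (8 of 24), cholesterol synthesis -0.07 (9 of 22) and heat shock -0.26 (5 of 16).

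The 5 largest positive medians were those of the cerebellum, striatum, T cell, red blood cell and mitochondrially encoded lists, and none was of similar size in every version. Striatal genes were positive in 14 of 14 with a median of 2.21, but in replicates 1 and 2 alone the median was -0.01 with 7 of 14 positive. Drd2, the D2 dopamine receptor, had 2.68, 8.38, 11.0 and 3.57 CPM in the double genotype, 4.05, 3.70, 3.40 and 2.91 CPM in PS19, 3.68 and 2.66 CPM in Lsd1Δ/+ and 4.82, 6.23, 12.8 and 14.0 CPM in WT. The list's mean log2 CPM was 4.04 in double replicate 3, 4.34 in WT replicate 3 and 4.19 in WT replicate 4, and at most 2.83 in the 11 other libraries. The 2 WT libraries have no Lsd1Δ/+ counterpart of their number.

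Mitochondrially encoded genes had a median interaction of 1.37 over 14 libraries, -0.13 in replicates 1 and 2 alone and -0.63 without WT replicate 3. The cerebellum list, drawn up after Gabra6, Cbln3 and Skor2 had been seen, had a median of 5.28 with 18 of 18 positive, and 0.14 without replicate 2 of the double genotype. Cbln3, a secreted protein of granule cells, had 0.648, 788, 0.363 and 0.848 CPM in the double genotype, 0.610, 0.522, 0.272 and 0.217 CPM in PS19, 1.27 and 1.41 CPM in Lsd1Δ/+ and 0.881, 32.0, 0.0973 and 0.606 CPM in WT. T cell genes had 1.65 (5 of 6 positive, 3 with an unadjusted p under 0.05) and -0.81 in replicates 1 and 2 alone. Their mean log2 CPM was 0.17 at most in any library, so they rest on few reads. Red blood cell genes had 1.40 (5 of 6 positive) and -0.34 in replicates 1 and 2 alone. Choroid plexus genes had a mean log2 CPM between 0.87 and 5.82 in single libraries, and a median interaction of -3.0 in replicate 1 alone and 1.18 in replicate 2 alone.

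**Figure D5:**
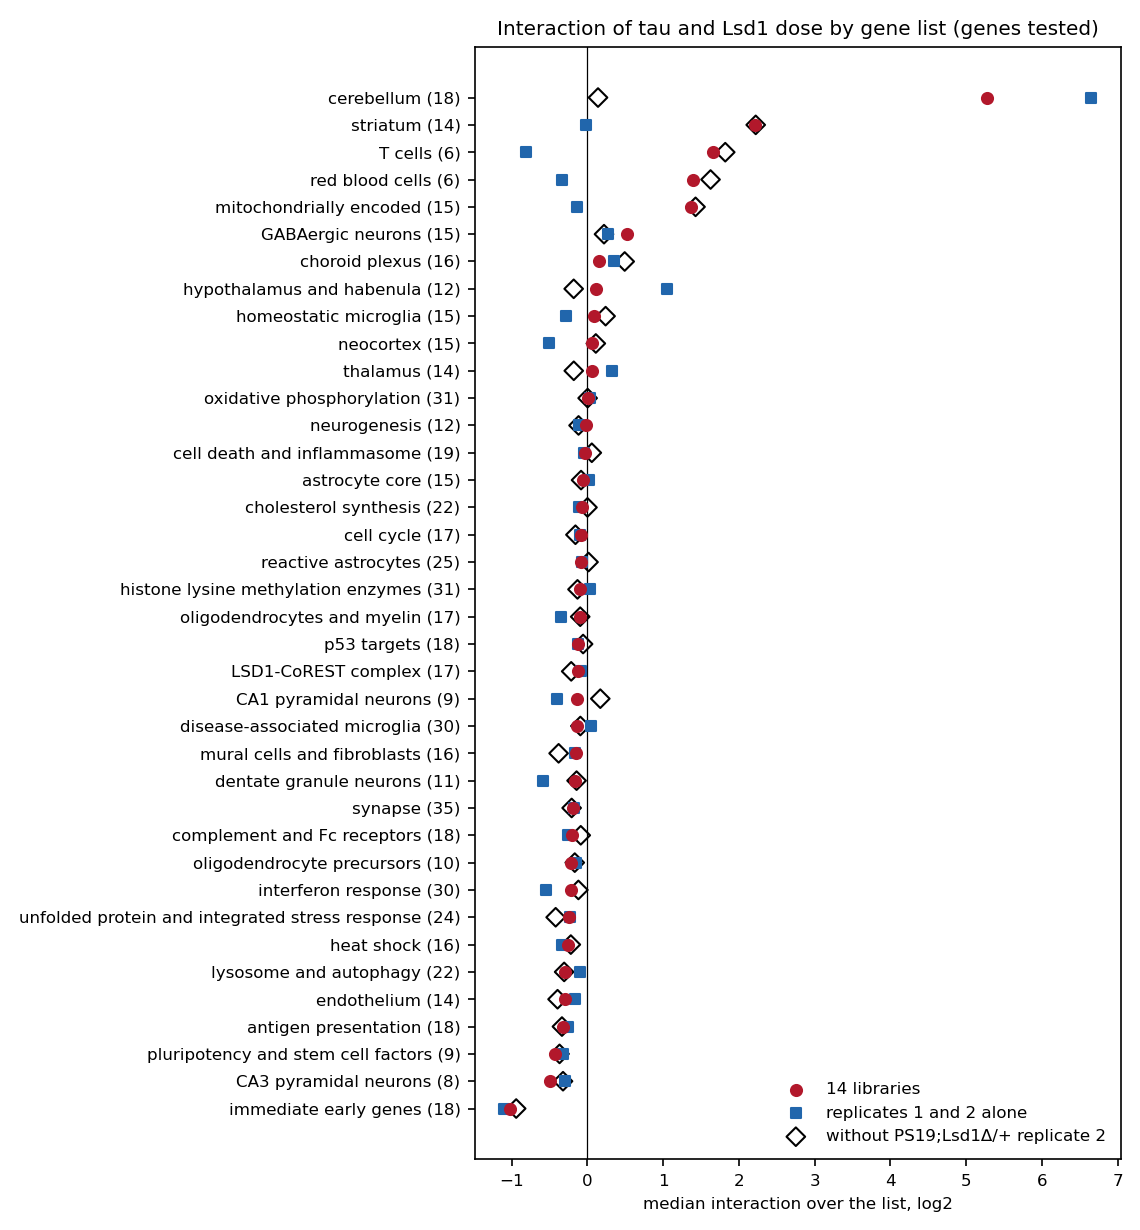
Median interaction (horizontal axis, log2) over the tested genes of each of 38 gene lists (vertical axis, with the number of genes), from 14 libraries, from replicates 1 and 2 alone, and without replicate 2 of the double genotype. The immediate early genes lie lowest in all 3 versions (-1.02, -1.09 and -0.94), and the cerebellum, striatum, T cell and mitochondrial lists come to 0.14 or below in at least 1 version.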

How the data were processed

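Poly(A)-selected hippocampal RNA was measured in 14 libraries of 9-month mice, and 9 libraries of 11-month mice were not used here. The submitters' processing notes list featureCounts 1.6.0.6, HISAT2 2.1.0, Trimmomatic 0.36.5, FastQC 0.11.7, DESeq2 2.11.40.2 and the build GRCm38. The authors deposited whole-number read counts per gene, 1 file per library and not normalized. How strand and multiple alignments were handled is not stated there. Each file held 54232 identifiers, of which 54165 matched GENCODE M21 for names and positions, and the 67 others held 0.0151% of reads.

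Counts were tested with edgeR 4.0.16 (R 4.3.3): TMM scaling, robust quasi-likelihood fit of the 4 groups, genes kept by filterByExpr (minimum count 10, minimum total 15), calls at a Benjamini-Hochberg adjusted p under 0.05. Log2 CPM used a prior count of 2, and single-replicate interactions are differences of log2 CPM. DESeq2 1.42.0 and limma 3.58.1 were alternatives, and the DESeq2 adjusted p was undefined for 188 genes. The smallest chi-square per gene between libraries of 1 group was 14.1, so none agreed within sampling noise. The fits were checked on simulated counts. Alternatives were other scalings and filters, each library left out, a replicate block, a term for replicates 1 and 2 against 3 and 4, and replicates 1 and 2 alone.

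Named genes were Kdm1a, Mapt and Prnp. Added were the 10 genes of each direction with the lowest p, of at least 1 CPM and the same sign in all 4 versions. The members with the lowest p of each list were also chosen, and not all of them are given in the text. Fosb, Arc, Cbln3 and Gabra6 were singled out after their values were seen. Members and lists (37, and a cerebellum list added later) were chosen with earlier results of these data known.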

Additional observations from a re-analysis of the deposited data

Results flagged for a closer look

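Of 165 sets of 4 libraries examined, 19 held a library far from the other 3. The rule flags about 1 in 20 sets by chance, but that rate cannot be set against these 19. Some genes and lists were chosen after a library had been seen to stand out, and several sets cover related transcripts of the same libraries. Mitochondrial transcripts made up 16.1% of reads in PS19 replicate 3 (3.27% to 5.27% in the other 3 PS19 libraries) and 33.9% in WT replicate 3 (3.74% to 6.04%), where the mitochondrially encoded list had a mean log2 CPM of 11.7 (7.94 to 8.43). WT replicate 3 also had 862 CPM of Camk2b (1280 to 1290 CPM) and 5.16 CPM of Rcor2 (11.8 to 13.7 CPM).

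In replicate 2 of the double genotype the cerebellum list had a mean log2 CPM of 7.07 (0.25 to 0.73 in its other 3 libraries), Gabra6 216 CPM (0 to 0.0463 CPM), Cbln3 788 CPM (0.363 to 0.848 CPM), Adamts18 14.1 CPM (1.62 to 1.76 CPM), Klhl1 6.60 CPM (1.34 to 1.70 CPM) and Hspb1, a small heat shock protein, 7.03 CPM (3.57 to 3.82 CPM). Its CA1 pyramidal neuron list had a mean log2 CPM of 3.70 (5.47 to 5.68). WT replicate 2 had 3.30 for the cerebellum list (0.51 to 0.81) and 10.5 CPM of Gabra6 (0 to 0.0927 CPM).

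PS19 replicate 2 had 69.9 CPM of Hspa1b (5.75 to 8.56 CPM), 36.0 CPM of Hspa1a (4.61 to 5.17 CPM) and 206 CPM of Jun (115 to 123 CPM). WT replicate 2 had 15.2 CPM of Hspa1b (5.84 to 6.42 CPM). PS19 replicate 3 had 6.73 CPM of Hbegf (32.9 to 39.7 CPM). What brought these libraries apart was not tested.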

How the results depend on the processing

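The count of 0 interactions held in edgeR when any 1 of the 14 libraries was left out (0 to 0), with the replicate block (0) and with each other scaling, filter and library choice tried over the 14 libraries, and with limma (0). DESeq2 called 2 interactions, 4 with a replicate block and 5 in replicates 1 and 2 alone. Between the double genotype and PS19 it called 1 gene, and 3 with the block, and between Lsd1Δ/+ and WT 1, and 2 with the block. Leaving out 1 library left edgeR at 0 to 0 in both comparisons. In replicates 1 and 2 alone, leaving out 1 library gave 0 to 695 calls. The 695 arose without replicate 1 of the double genotype, which leaves its cerebellar library as that group's only sample, assumed to vary like the other groups. The cerebellum list was drawn up after genes high in that library had been seen, so its members among these calls are not separate support. Same-numbered libraries correlated in their deviations from the group means by 0.298 to 0.479 between the double genotype and PS19, 0.313 to 0.538 between the double genotype and WT and 0.497 to 0.821 between PS19 and WT. Lsd1Δ/+ has 2 numbers, too few to settle its pairing, and correlated by 0.368 with PS19, 0.103 with WT and 0.0281 with the double genotype. With the replicate block the median interaction was 0.84 for striatum (2.21 without it), 0.02 for mitochondrially encoded (1.37), 0.05 for antigen presentation (-0.33), -0.10 for interferon response (-0.22) and -0.67 for immediate early genes (-1.02).

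Of 1226 alternative values for 41 of the named genes, 13 reversed sign. This count does not measure how stable the signs are. The 10 genes of each direction had been chosen for the same sign in all 4 versions, and most alternatives reuse most libraries. Single-replicate values were not among the 1226. Between the replicate 1 and replicate 2 interactions, 34% of genes of at least 1 CPM had the same sign. Mapt (-0.08) ran from -0.197 to 0.072 with 1 library left out, and was 0.088 with the replicate block, 0.080 with the term for sets of replicates and 0.098 in DESeq2 with the block. Prnp (-0.21) was 0.003 without the 3 doubted libraries (double replicate 2, WT replicate 3 and PS19 replicate 3) and 0.069 in replicates 1 and 2 without double replicate 2. Cd74 (-1.20) ran from -1.95 to 0.52 with 1 library left out, and was 0.52 in replicates 1 and 2, 1.41 there with the block and 0.78 there without double replicate 2. Of the 38 list medians, 10 moved by more than the spread between libraries (1 SD within groups) with the replicate block, 9 in replicates 1 and 2 alone, 11 there without double replicate 2, 8 with the term for sets of replicates, 4 without double replicate 2 and 6 without Lsd1Δ/+ replicate 1. These causes were not tested. Added after the data were seen were the doubted libraries, the DESeq2 block and the changes within replicates 1 and 2. Capn11 rests on 1 to 93 reads per library.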
